A study of Mus musculus with 17 samples.

Results

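The 8 genes described here were Egr1, Egr2, Egr3, Egr4, Nr4a1, Nr4a2, Nr4a3 and Npas4, transcription factors that neurons switch on within minutes to hours of electrical activity. They were chosen by name with earlier results of these data known, so their counts below are not those of a blind choice. All 8 were found among the 24491 gene symbols and passed the low-count filter that left 14877 genes for testing in hippocampus. They were measured by poly(A) RNA-seq in 10 hippocampus libraries from adult wild-type CD1 female mice, aged 40 to 44 weeks (about 10 months), which were grouped by their mothers. In the first group (young, n = 4 libraries) the mother was young and untreated. In the second (aged, n = 3) she was aged and untreated, and in the third (rapamycin, n = 3) she was aged and had received rapamycin, an inhibitor of the mTOR kinase, by intraperitoneal injection at 2 mg/kg for 40 weeks from 8 weeks of age. The sample titles place the drug with the mother, and no dosing of the offspring is described. Whether libraries of a group came from separate animals or litters is not in the labels, and the p-values therefore reflect only library-to-library spread, part of which may be technical. Another 7 libraries of the series came from oocytes. The 8 genes lie on 8 different chromosomes, and none overlaps another annotated gene.

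The Egr proteins are zinc-finger activators that bind GC-rich sites, are induced through serum response factor and CREB, and are held back by the co-repressors Nab1 and Nab2. The Nr4a proteins are orphan nuclear receptors that act without a known ligand on a sequence called NBRE, and some of them also pair with a retinoid X receptor. Npas4 is a basic helix-loop-helix factor that responds selectively to calcium entry in neurons, pairs with Arnt or Arnt2 and shapes inhibitory synapses. In hippocampus these factors are widely used as marks of recent neuronal firing and are linked to memory formation.

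The libraries held 16434398 to 20220617 counts in genes, so that 3 counts corresponded to 0.151 to 0.187 CPM, a library's counts scaled to a common total with edgeR's TMM factors. Markers of hippocampal excitatory neurons were high in all 10 libraries, with Slc17a7 at 1301 to 2016 CPM and Neurod6 at 194 to 332 CPM. Xist had 4013 to 21087 counts and the Y-linked genes examined had 0 to 1. Young 2 and rapamycin 2 stood apart from the other libraries of their groups. Their mean level of 74 ribosomal protein transcripts was 0.68 and 0.65 above the mean of all libraries on the log2 scale, where the rest of the young and rapamycin libraries lay between -0.92 and -0.094 and the aged libraries between 0.021 and 0.49. Aged 1 carried more transcripts of habenula markers, a region next to the hippocampus, with Gpr151 at 18.7 CPM against a median of 1.51 CPM over the 10 libraries.

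The promoter windows of 4 members are shown because these genes differed most between groups (Egr2, Npas4, Egr4) or were called with them (Nr4a1). The sequences are RefSeq windows of 300 bases on GRCm38.p6, from 250 bases before to 50 after a transcription start, written 5′ to 3′ on the gene's strand. Capitals mark matches on either strand to TGACG, the core of the cAMP response element bound by CREB, to the CArG box bound by serum response factor, and to the Egr site GCGNGGGCG. Egr2 had 5 such windows and the third is shown (chr10:67537619-67537918, plus strand). The Egr4 window lies at chr6:85513540-85513839 (minus strand), that of Nr4a1 at chr15:101266596-101266895 (plus strand, a start inside the annotated gene) and that of Npas4 at chr19:4989922-4990221 (minus strand).
Egr2: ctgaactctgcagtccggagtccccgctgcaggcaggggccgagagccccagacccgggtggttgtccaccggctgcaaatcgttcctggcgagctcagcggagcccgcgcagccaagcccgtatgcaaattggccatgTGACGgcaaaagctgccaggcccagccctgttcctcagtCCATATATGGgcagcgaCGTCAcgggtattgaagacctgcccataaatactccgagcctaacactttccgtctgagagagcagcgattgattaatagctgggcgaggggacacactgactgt
Egr4: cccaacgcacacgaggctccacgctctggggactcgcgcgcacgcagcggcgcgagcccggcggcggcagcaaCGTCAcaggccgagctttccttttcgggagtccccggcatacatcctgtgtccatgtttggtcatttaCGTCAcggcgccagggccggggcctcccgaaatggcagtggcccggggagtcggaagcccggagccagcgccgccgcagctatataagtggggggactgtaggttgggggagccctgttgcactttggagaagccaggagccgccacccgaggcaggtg
Nr4a1: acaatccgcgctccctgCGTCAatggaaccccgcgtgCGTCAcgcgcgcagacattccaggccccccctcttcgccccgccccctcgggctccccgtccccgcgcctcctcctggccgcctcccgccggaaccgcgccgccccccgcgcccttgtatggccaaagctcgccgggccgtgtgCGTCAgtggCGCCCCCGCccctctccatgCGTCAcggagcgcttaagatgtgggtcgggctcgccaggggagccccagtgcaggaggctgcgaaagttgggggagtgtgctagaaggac
Npas4: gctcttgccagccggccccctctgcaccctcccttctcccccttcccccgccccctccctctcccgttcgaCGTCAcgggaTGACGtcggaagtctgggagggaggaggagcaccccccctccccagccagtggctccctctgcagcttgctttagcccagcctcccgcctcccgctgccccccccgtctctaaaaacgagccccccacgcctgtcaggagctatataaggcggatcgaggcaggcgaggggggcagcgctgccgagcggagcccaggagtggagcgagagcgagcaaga
The Egr2 window had 1 CArG box, starting at position -72 from the start, between 2 TGACG matches at -111 and -55. The Egr4 window had 2 such matches (-177 and -109), the Npas4 window 2 (-179 and -169) and the Nr4a1 window 4, the nearest at -40. An Egr site started at -60 in the Nr4a1 window. RefSeq windows were found for 6 of the 8 members. Egr1 and Egr3 had none and were therefore not searched for any motif. All 6 held TGACG in at least 1 window, where 23.0% of 27025 genes did. A CArG box was found in Egr2 alone of these 6, at 2 distinct sites in 4 of its 5 windows, since windows 3 to 5 overlap and hold the same one. The share was 1.81% over all genes and 1.63% over all windows. The Egr site was found in Nr4a1 and Nr4a2, against 6.27% of all genes. The palindromic cAMP response element TGACGTCA (2.03% of genes), which contains TGACG, and the Nr4a site NBRE, AAAGGTCA (1.70%), were matched in none of the 6. These are letter matches in windows and not measurements of binding.

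The first comparison asked how offspring of aged and of young mothers differed. Egr2, which in other tissues also drives myelination by Schwann cells, was the member with the largest difference. It was at 1.23, 0.309, 1.01 and 1.76 CPM in young 1 to 4, from 21, 5, 20 and 34 counts. In the aged libraries 1 to 3 it was at 9.40, 6.65 and 15.9 CPM, from 169, 120 and 317 counts. The lowest aged library was thus well above the highest young one, and the groups did not overlap. The fold was 9.75 with a 95% interval of 5.07 to 18.7 (edgeR adjusted p = 0.0279, Benjamini-Hochberg over all genes tested). In bulk tissue, more cells expressing a gene and more RNA per cell cannot be told apart.

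Egr4, the member of the family that lacks the Nab-binding domain, was at 22.8, 20.3, 20.9 and 30.7 CPM in young 1 to 4 and at 65.6, 53.5 and 81.9 CPM in aged 1 to 3. Nr4a1, also called Nur77, was at 46.1, 47.1, 42.1 and 57.9 CPM in the young libraries and at 121, 98.3 and 172 CPM in the aged ones. In both genes every aged library lay above every young one. The fold was 2.83 (95% interval 2.10 to 3.81) for Egr4 and 2.70 (2.04 to 3.59) for Nr4a1, each with an edgeR adjusted p of 0.0279. These 3 of 8 members passed the threshold of 0.05 in the higher direction and none in the lower, where 0.0471% of all genes tested (7 of 14877) were called, all higher. They ranked 3rd to 5th by p among the 14877 genes, after Fosb and Fos.

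Egr1 and Nr4a2 had differences of similar size that did not pass. Egr1, also known as Zif268 and long studied in memory consolidation, was at 103, 74.8, 75.6 and 131 CPM in young 1 to 4 and at 216, 173 and 308 CPM in aged 1 to 3. Its log2 fold change was 1.27 ± 0.23 (standard error), with an edgeR adjusted p of 0.186. Nr4a2, also called Nurr1 and required for dopamine neurons, was at 41.7, 51.9, 39.9 and 46.3 CPM in the young libraries and at 91.3, 87.1 and 103 CPM in the aged ones. Its log2 fold change was 1.06 ± 0.16, with an edgeR adjusted p of 0.0618. Neither gene had overlapping groups. Both were past the threshold in DESeq2, which called 5 of the 8 members, all higher, against 0.269% of all genes (0.35% in either direction). Nr4a2 also passed in edgeR without young 2 alone (adjusted p = 0.0437). With all 10 libraries it passed with the ribosomal protein level as a covariate (0.0242) and without the low-count filter (0.0447). It did not pass with only the aged and young libraries fitted (0.0678) or with a block for the replicate number (0.186). Nr4a2 was called in 3 of 8 other settings, DESeq2 among them. Of the 10 single omissions, 1 gave a call (edgeR adjusted p up to 0.356). Egr1 (adjusted p = 0.0257) and Nr4a2 (0.00799) both passed in edgeR without young 2 and rapamycin 2, a choice made after seeing the data. There 5 members and 3.93% of all genes were called.

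Npas4 was at 3.46, 1.92, 5.38 and 11.3 CPM in young 1 to 4 and at 12.0, 12.8 and 23.5 CPM in aged 1 to 3. The groups did not overlap, but young 4 was within 1 CPM of aged 1, and the spread among the young libraries was 74.5% of their mean. The log2 fold change was 1.54 ± 0.48 (edgeR adjusted p = 0.990). It was 2.16 without young 4, and 1.16 to 2.16 over all single omissions, without a call.

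Egr3 and Nr4a3 had the smallest differences. Egr3, which supports muscle spindle development and late phases of plasticity, was at 148, 101, 106 and 137 CPM in the young libraries and at 178, 145 and 174 CPM in the aged ones. Nr4a3, also called Nor-1, was at 137, 88.7, 121 and 142 CPM in the young libraries and at 136, 135 and 200 CPM in the aged ones. In both genes the groups overlapped, in Nr4a3 because only aged 3 was above the young range. The log2 fold change was 0.43 (95% interval 0.073 to 0.78) for Egr3 and 0.37 (-0.14 to 0.87) for Nr4a3, each with an edgeR adjusted p of 0.990. Their intervals lay below those of Egr2 (2.34 to 4.23), Egr4 (1.07 to 1.93) and Nr4a1 (1.03 to 1.84), though the difference between members was not tested.

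Across the 8 members, the log2 fold change was above 0 in 8 and its median was 1.35, against -0.011 over all genes tested. Groups did not overlap in 6 members, all higher in aged, where this held for 2.92% of all genes in that direction and for 2.52% in the other. An unadjusted edgeR p under 0.05 was found for 7 members (all but Nr4a3) and for 3.51% of all genes. All 3 calls were lost when aged 1, aged 3, rapamycin 1, rapamycin 3, young 1 or young 3 was left out (edgeR adjusted p up to 0.175), and when only the aged and young libraries were fitted (0.0793 to 0.0854). The log2 fold change with any 1 of the 10 libraries left out was 2.88 to 3.63 for Egr2, 1.33 to 1.65 for Egr4 and 1.18 to 1.60 for Nr4a1.

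**Figure D1:**
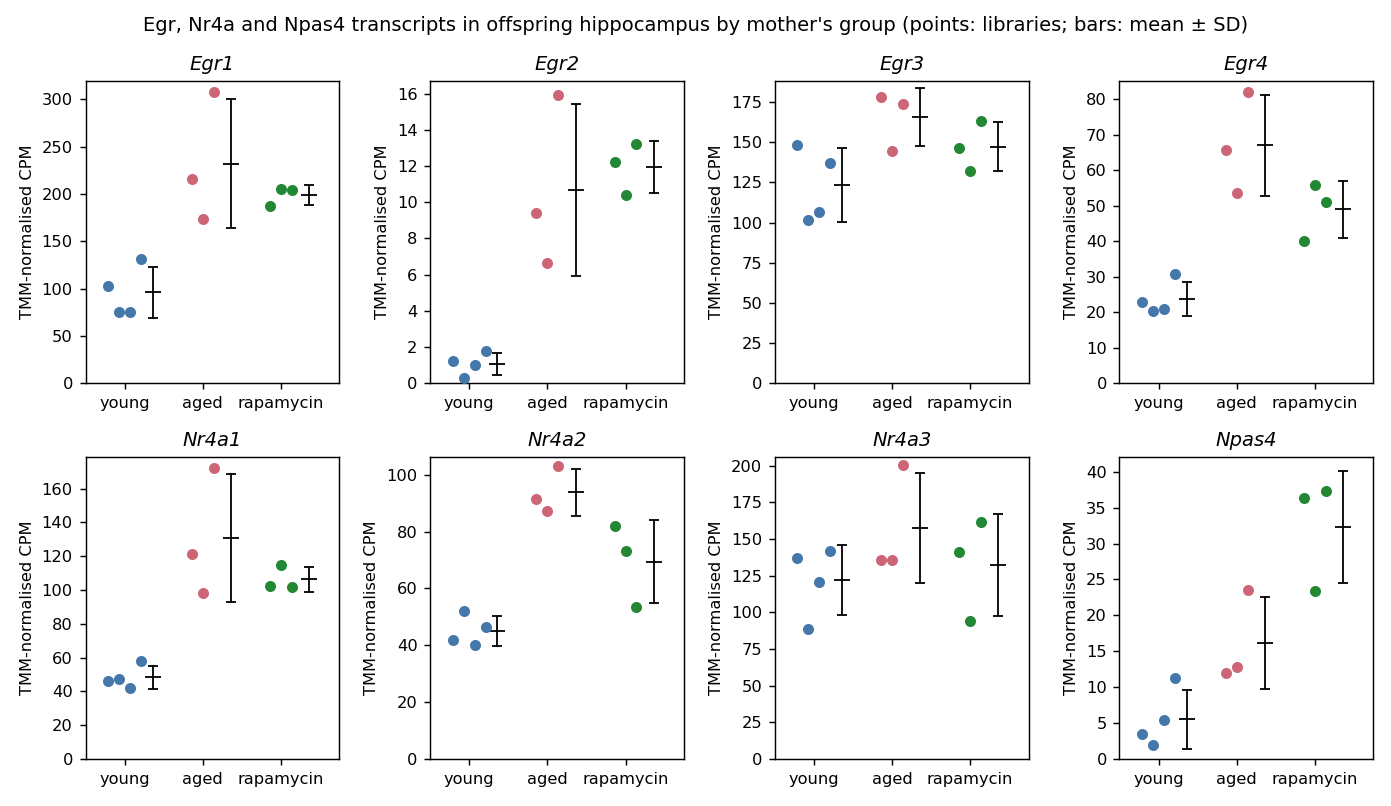
TMM-normalised CPM of the 8 members in each hippocampus library (points, coloured by the mother's group), with the mean ± SD of each group beside them. The aged and rapamycin points of Egr1, Egr2, Egr4, Nr4a1, Nr4a2 and Npas4 lie above all young points, while those of Egr3 and Nr4a3 overlap them.

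The second comparison asked what treating the aged mothers with rapamycin changed in their offspring. It shares the aged libraries with the first comparison, and the third shares the young and rapamycin libraries with the first and the second. No member was called between rapamycin and aged (edgeR), where 0% of all genes were called. DESeq2 called 13 genes (0.0874%) and no member. At an unadjusted edgeR p under 0.05 there were 673 genes (4.52%) and 1 member, Nr4a2.

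Nr4a2 was at 81.8, 73.0 and 53.5 CPM in rapamycin 1 to 3, and each was below the lowest aged library, at 87.1 CPM. It was the only member whose groups did not overlap, where 4.88% of all genes were lower and 5.01% higher in rapamycin in this way. The log2 fold change was -0.43 (95% interval -0.81 to -0.060; edgeR adjusted p = 0.796). Egr4 was at 40.1, 55.8 and 51.0 CPM in rapamycin 1 to 3, which overlapped the aged range only through rapamycin 2, and its log2 fold change was -0.45 (-0.91 to 0.0050).

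Npas4 was ordered the other way, at 36.3, 23.3 and 37.4 CPM in rapamycin 1 to 3. Rapamycin 1 and 3 were above every aged library, and rapamycin 2 lay just below aged 3 (23.5 CPM). The log2 fold change was 1.00 ± 0.50 with a 95% interval of -0.11 to 2.12 (edgeR adjusted p = 0.796), so that no difference and a 4.34-fold higher level were both within the interval.

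Egr2 was at 12.2, 10.4 and 13.2 CPM in rapamycin 1 to 3, inside the aged range, and Egr1 was at 187, 206 and 204 CPM, also inside it. Their intervals were -0.73 to 1.06 for Egr2 and -0.77 to 0.33 for Egr1 on the log2 scale. Nr4a1 was at 102, 115 and 102 CPM in rapamycin, again within the aged range (interval -0.74 to 0.14). Egr3 (146, 132 and 163 CPM) and Nr4a3 (141, 94.3 and 162 CPM) overlapped the aged group as well. The log2 fold change was below 0 in 6 members and above 0 in Egr2 and Npas4, with a median of -0.24 against 0.019 over all genes. The sign turned for Egr1 without aged 3 (0.031) and for Egr2 without aged 2 (-0.084) or with the ribosomal protein level as a covariate (-0.071).

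Without young 2 and rapamycin 2, the rapamycin and aged groups were called different in 20.9% of all genes, and still in no member. The 2 rapamycin libraries that remained had ribosomal protein levels of -0.92 and -0.43 relative to the mean of all libraries, below all 3 aged ones; the part of this difference in the result was not tested. The members nearest the threshold there were Npas4 (log2 fold change 1.17, edgeR adjusted p = 0.0523), Nr4a2 (-0.48, 0.0599) and Egr4 (-0.57, 0.0701).

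The third comparison set offspring of rapamycin-treated aged mothers against offspring of young mothers. Egr2 rose with a fold of 10.9 (95% interval 5.67 to 21.0; edgeR adjusted p = 0.0179) and was the only member of 8 called, where 0.0538% of all genes (8 of 14877) were called, all higher. This call was lost without aged 1, rapamycin 1, rapamycin 3, young 1 or young 3 (edgeR adjusted p up to 0.107), and with only these 2 groups fitted (0.0657). Npas4 differed by 2.54 ± 0.48 on the log2 scale (edgeR adjusted p = 0.264), from a mean of 5.52 ± 4.11 CPM (SD, n = 4) to 32.3 ± 7.82 CPM (SD, n = 3). Its lowest rapamycin library was at 23.3 CPM and its highest young library, young 4, at 11.3 CPM. Without young 4 the difference was 3.16 and passed the threshold (edgeR adjusted p = 0.0450).

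Nr4a1 (1.14 ± 0.18, edgeR adjusted p = 0.111), Egr4 (1.05 ± 0.19, 0.225), Egr1 (1.05 ± 0.23, 0.630) and Nr4a2 (0.63 ± 0.16, 0.914) had non-overlapping groups and did not pass, although Nr4a1 passed without aged 3 (edgeR adjusted p = 0.0340). Together with Egr2 and Npas4 these were 6 members whose rapamycin libraries all lay above the young ones, which held for 2.93% of all genes. DESeq2 called 5 members, Egr1, Egr2, Egr4, Nr4a1 and Npas4, all higher, against 0.181% of all genes (0.242% in either direction). Without young 2 and rapamycin 2 only Egr2 was called (0.0599% of all genes). Egr3 (0.26, 95% interval -0.10 to 0.61) and Nr4a3 (0.12, -0.39 to 0.62) overlapped the young group. The median over the members was 1.05, against 0.0074 over all genes.

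**Figure D2:**
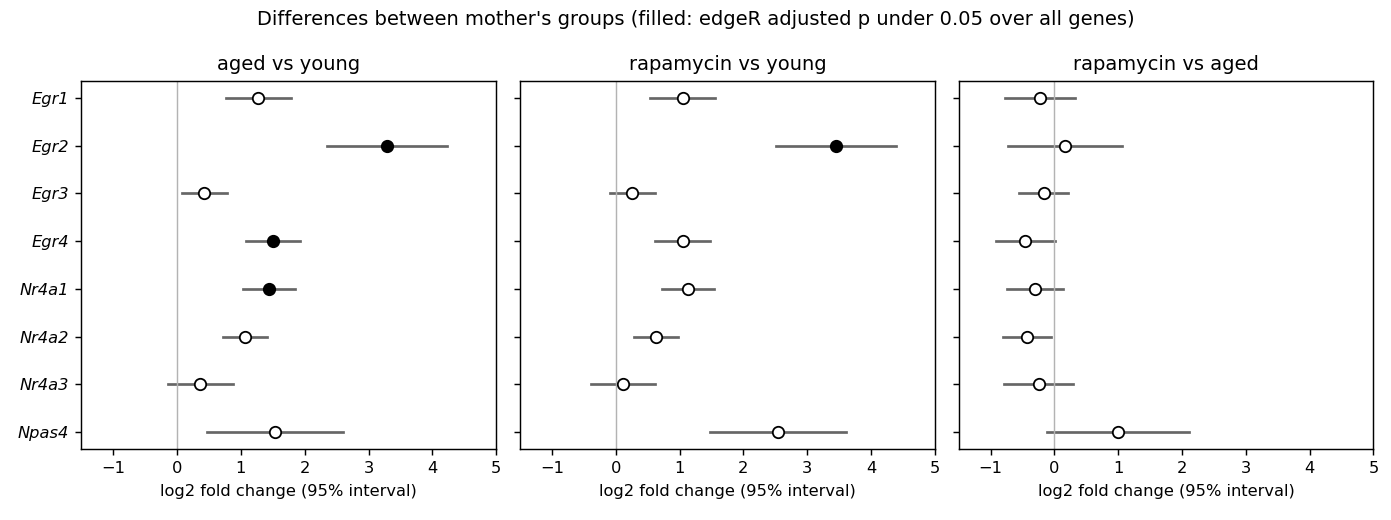
Log2 fold change of each member in the 3 comparisons, as points with 95% intervals and filled where the edgeR adjusted p is under 0.05 over all genes. Filled points are Egr2, Egr4 and Nr4a1 for aged against young and Egr2 for rapamycin against young, and none for rapamycin against aged.

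Most members placed the aged and young libraries in a similar order. Aged 3 was the highest of the 10 libraries for 6 of the 8 members, and young 2 the lowest for 6. Inside the groups, aged 2 was the lowest aged library for 7 members and young 4 the highest young library for 6. The rapamycin libraries kept no such place, as rapamycin 1, 2 and 3 were the highest of their group for 1, 3 and 4 members and the lowest for 2, 4 and 2. With each gene standardised over the 10 libraries, the mean of the members was -1.44 to -0.37 in the young libraries, 0.35 to 1.30 in the aged and 0.25 to 0.59 in the rapamycin libraries. Nr4a3 departed from this order. Rapamycin 2 ranked 9th of 10 for Nr4a3, and young 4 ranked 3rd.

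The likeness of each member to the mean of the other 7 was described by Pearson's r over the 10 libraries, which share the group differences above and their normalisation. It was highest for Egr1 (r = 0.983) and lowest for Nr4a3 (0.577). Egr4 and Nr4a1 were the most alike pair (0.979), and Nr4a2 and Nr4a3, of the same family, the least alike (0.319). Npas4 was most like Egr2 (0.930).

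**Figure D3:**
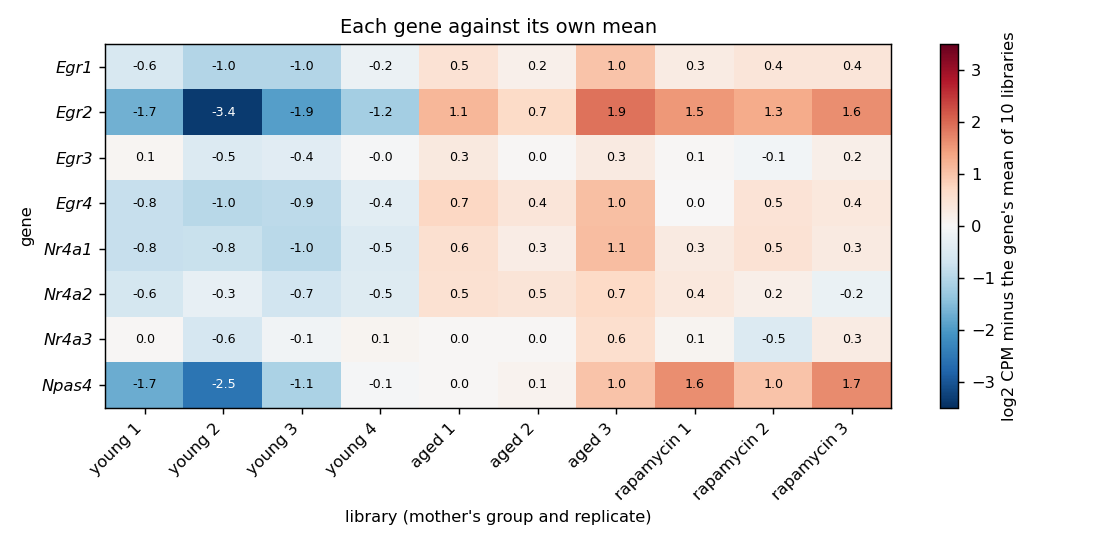
Log2 CPM of each member (rows) in each library (columns), minus that gene's mean over the 10 libraries; red is above and blue below the mean. Aged 3 has high values in every row, young 2 low ones, and the Egr3 and Nr4a3 rows are the palest.

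Per kilobase of exon, which allows levels to be compared between genes, Egr3 led in the young libraries with 28.0 ± 5.19 reads per kilobase, scaled as CPM (SD, n = 4). Egr1 (21.4 ± 5.98) and Nr4a3 (20.4 ± 3.99) followed, and their ranges overlapped with that of Egr3. Nr4a1 (13.8 ± 1.93), Nr4a2 (11.1 ± 1.32) and Egr4 (11.0 ± 2.24) were lower and overlapped one another. Npas4 (1.33 ± 0.995) and Egr2 (0.317 ± 0.177) were far below these 6 genes and overlapped each other only narrowly.

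In the aged libraries Egr1 led, with 51.8 ± 15.3 reads per kilobase on that scale (SD, n = 3), ahead of Egr3 (37.6 ± 4.14) and Nr4a1 (37.2 ± 10.8), with overlapping ranges. Egr4 reached 31.2 ± 6.63, above the means of Nr4a3 (26.2 ± 6.25) and Nr4a2 (23.1 ± 2.05) and overlapping both. Npas4 (3.90 ± 1.56) and Egr2 (3.14 ± 1.40) stayed last and overlapped. In the rapamycin libraries the order of the means was the same, but Egr1 (44.4 ± 2.34) lay clear of Egr3 (33.4 ± 3.52), and Npas4 (7.82 ± 1.89) clear of Egr2 (3.52 ± 0.424).

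The make-up of each family's transcripts was also set side by side. Egr3 made up 46.3% ± 3.54 of Egr reads per kilobase in the young libraries (SD, n = 4) and 30.9% ± 4.12 in the aged (SD, n = 3), without overlap. Egr4 was at 18.2% ± 1.69 in the young and at 25.2% ± 0.161 in the aged libraries. Egr2 went from 0.497% ± 0.218 to 2.45% ± 0.580 and remained the smallest part. Among Nr4a reads, Nr4a3 was at 44.8% in the young (36.1 to 49.4%) and 30.3% in the aged libraries (28.4 to 31.4%), and Nr4a1 at 30.4% ± 2.26 and 42.6% ± 3.38, again without overlap. In the rapamycin libraries Egr3 was at 28.6 to 34.2%, below the young range, while Nr4a3, at 23.7 to 39.0%, overlapped it. A lower share is not a lower level: the mean levels of Egr3 and Nr4a3 were higher in the aged than in the young libraries. Of all 8 members' reads per kilobase, Npas4 was 1.18% ± 0.721 in the young, 1.79% ± 0.366 in the aged and 4.30% ± 0.965 in the rapamycin libraries (SD, n = 3). These shares are descriptions without a test.

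**Figure D4:**
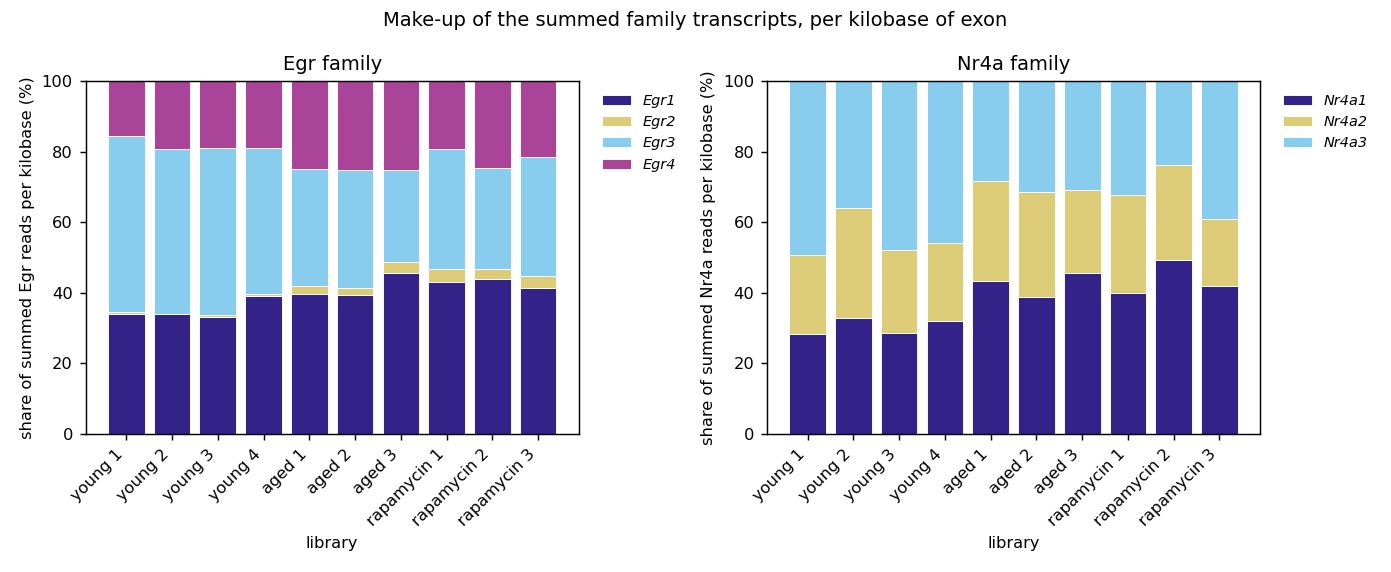
Share of each gene in the summed reads per kilobase of the Egr family (left) and the Nr4a family (right), for each library. Egr3 and Nr4a3 take a larger part of the bar in the 4 young libraries than in the 3 aged ones, and Egr2 is a thin band in all.

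Genes that act before, with and after the members were taken from lists by role. Of 23 kinases, phosphatase subunits and calcium channels that carry the activity signal to the nucleus, none was called in any of the 3 comparisons. Over all genes, 0.0471% were called for aged against young, 0% for rapamycin against aged and 0.0538% for rapamycin against young. A list of this size without a call is therefore not unusual. The median log2 fold change was -0.039 for aged against young and -0.0063 for rapamycin against young. The L-type channel Cacna1c (-0.61 ± 0.45), its relative Cacna1d (-0.51 ± 0.39), the kinase Camk4 (-0.41 ± 0.29) and Mapk3 (0.33 ± 0.27) had the smallest p in the first comparison, and all overlapped. The 16 upstream transcription factors and coactivators had a median of -0.027 in that comparison and no calls. Srf, which encodes the serum response factor, was at 66.9 to 71.9 CPM in the young and 74.1 to 81.4 CPM in the aged libraries. Its groups did not overlap, which held for 2.92% of all genes in that direction, and its log2 fold change was 0.16 ± 0.13. Atf1 (0.21 ± 0.16), Elk1 (0.087 ± 0.12) and the coactivator Crebbp (-0.22 ± 0.29) had differences close to or below their standard errors.

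Among 7 co-regulators and partners none was called in any comparison, where at most 0.0538% of all genes were. Nab2, the co-repressor that Egr factors themselves induce, was at 42.8 to 55.5 CPM in the young and 56.2 to 65.2 CPM in the aged libraries, without overlap (log2 fold change 0.28 ± 0.12, edgeR adjusted p = 0.990). In the rapamycin libraries it was at 49.8 to 54.2 CPM, below all aged ones. Nab1 (0.17 ± 0.16), the retinoid receptor Rxrb (0.15 ± 0.16), Arnt (-0.41 ± 0.29) and Arnt2 (-0.024 ± 0.18) overlapped between aged and young.

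Other immediate early transcription factors were measured in 21 tested genes, of which 2 were called higher for aged against young (Fos and Fosb) and 14 had non-overlapping groups, all higher, with a median of 0.60. Over all genes, 0.0471% were called higher and 2.92% did not overlap in that direction. For rapamycin against young 4 were called, Fos (3.23 ± 0.28, edgeR adjusted p = 0.00154), Fosb (1.67 ± 0.19, 0.0114), the antiproliferative factor Btg2 (1.92 ± 0.16, 0.00154) and Ier2 (1.68 ± 0.23, 0.0370), with a median of 0.32, where 0.0538% of all genes were called. Ier2 is named because it was called, and was chosen after its values were seen. Btg2 shared the order of Npas4, at 13.8 to 16.1 CPM in the young, 20.3 to 30.0 CPM in the aged and 45.7 to 63.7 CPM in the rapamycin libraries, but for rapamycin against aged it did not pass (1.18 ± 0.18, edgeR adjusted p = 0.531). Junb was at 42.4 to 66.0, 108.6 to 172 and 109.5 to 158 CPM in the same groups and was not called.

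Effector and feedback genes, the products through which activity alters synapses or signalling, gave 2 calls of 31 for aged against young, Arc and Sik1. The median was 0.19, and 12 of the 31 had non-overlapping groups, all higher. Over all genes, 0.0471% were called higher and 2.92% did not overlap in that direction. For rapamycin against young there were 3 calls, the phosphatase Dusp1 (2.13 ± 0.23, edgeR adjusted p = 0.00831), Sik1 (1.41 ± 0.19, 0.0355) and the matricellular protein gene Cyr61 (2.28), the last named after its values were seen. Over all genes, 0.0538% were called. Of the 31 genes, 9 were higher and 2 lower without overlap, against 2.93% and 2.10% of all genes. Dusp1 was at 10.9 to 14.4 CPM in the young, 19.2 to 38.7 CPM in the aged and 47.6 to 64.5 CPM in the rapamycin libraries. Tiparp, a poly(ADP-ribose) polymerase, was at 16.3 to 19.7, 27.3 to 33.6 and 21.1 to 24.5 CPM, which is the order of Nr4a2, and was called in no comparison. No gene of either list was called for rapamycin against aged.

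**Figure D5:**
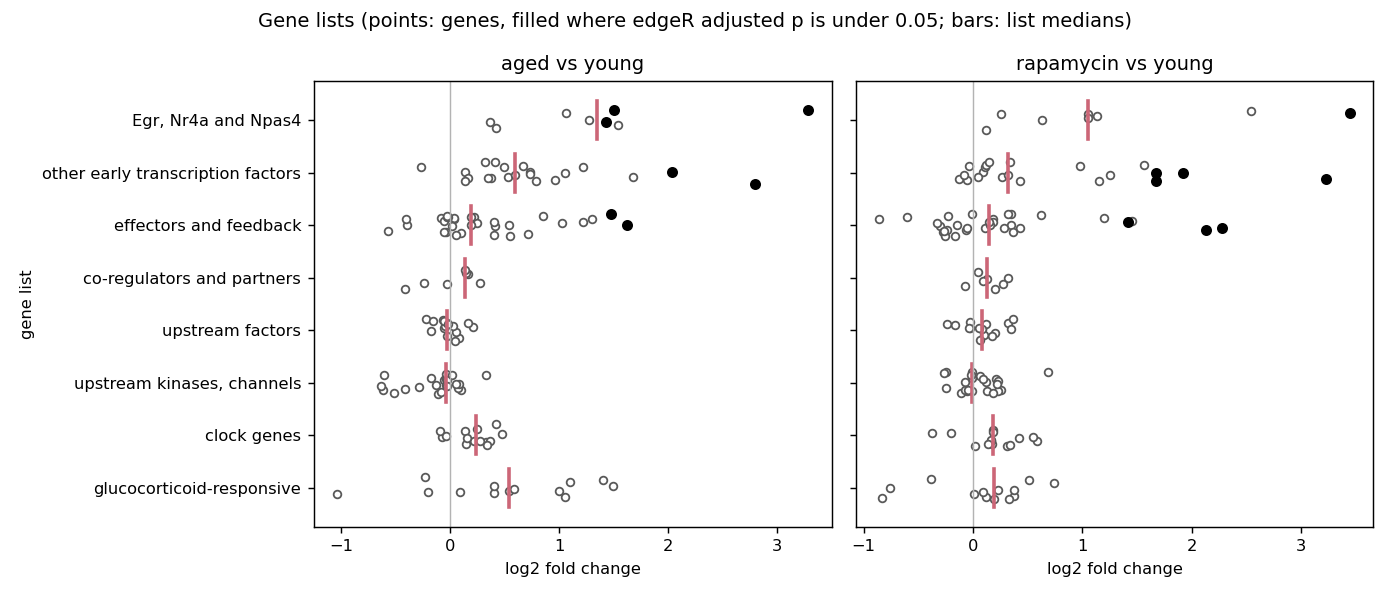
Log2 fold change of each tested gene (points, filled where the edgeR adjusted p is under 0.05) by gene list, for aged against young and rapamycin against young; the bars are list medians. Filled points occur only among the members, the other early transcription factors and the effectors.

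Over 11795 genes with a mean of at least 2 on the log2 CPM scale, those with the pattern most like the mean of the members over the 10 libraries were Arc (Pearson's r = 0.941), Fosb (0.933), the glycogen phosphorylase gene Pygb (0.923), Rasl11a (0.898), Fos (0.881), Junb (0.877), Pex26 (0.872) and Crebl2 (0.868). Pygb was at 249 ± 14.5 CPM in the young (SD, n = 4), 330 ± 18.5 CPM in the aged and 316 ± 14.9 CPM in the rapamycin libraries (SD, n = 3), a difference of 0.41 ± 0.11 (log2) for aged against young (edgeR adjusted p = 0.696). Crebl2 was at 33.9 ± 1.24, 44.3 ± 5.72 and 44.7 ± 4.42 CPM in the same groups. These correlations rest on 10 libraries and largely on the difference between young and the other groups.

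Glucocorticoid-responsive genes and clock genes, which follow stress and time of day, were examined beside the members. None of the 13 tested glucocorticoid-responsive genes was called in any comparison, where at most 0.0538% of all genes were. For aged against young 6 of them had non-overlapping groups, all higher (against 2.92% of all genes), with a median of 0.55. Tsc22d3 was at 34.6 to 61.4 CPM in the young, 107 to 160 CPM in the aged and 66.3 to 95.9 CPM in the rapamycin libraries (1.49 ± 0.22 for aged against young, edgeR adjusted p = 0.0618). Pdk4 (1.40 ± 0.23), the kinase Sgk1 (1.11 ± 0.19) and Errfi1 (0.55 ± 0.12) had the same order. For rapamycin against aged 6 of the 13 were lower without overlap (against 4.88% of all genes), and the median was -0.61. Of 14 clock genes and outputs none was called, 4 were higher without overlap in aged than in young (against 2.92% of all genes) and the median was 0.24, with Hlf at 0.48 ± 0.13. The hour of collection is not given in the sources used here, and the part of either list in the members' differences was not tested.

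Markers of other cell types were not called in any comparison, where at most 0.0538% of all genes were. The 12 excitatory neuron markers summed to 6464 to 8164 CPM in the young, 7024 to 7579 CPM in the aged and 7438 to 8947 CPM in the rapamycin libraries, with a median difference of -0.13 for aged against young. All 10 endothelial and mural markers were below 0 in that comparison (median -0.63). They summed to 89.2 to 242 CPM in the young (median 217), 114 to 125 CPM in the aged (median 119) and 104 to 276 CPM in the rapamycin libraries (median 255). The groups overlapped only through the lowest young and the lowest rapamycin library. All 8 astrocyte markers were above 0 (median 0.14), with 4816 to 7355 CPM in the young and 6006 to 6643 CPM in the aged libraries. Ribosomal protein genes were above 0 in 73 of 74 (median 0.28). The hemoglobin genes were listed at 0 in all libraries. The part of these markers in the members' differences was not tested.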

How the data were processed

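Gene-level counts were deposited by the authors as 1 table per library, with 24491 gene symbols and 5 summary rows. Reads were aligned with STAR and counted with HTSeq against mm10, per the submitters' processing notes; the sources used here give neither versions nor annotation. Summary rows stayed out of library sizes and tests, and 11.6 to 16.0% of reads fell in no gene and 5.09 to 8.01% were not unique. All 10 hippocampus libraries entered 1 edgeR quasi-likelihood fit (edgeR 4.0.16, R 4.3.3) with TMM factors and the filterByExpr filter, and p-values were adjusted by Benjamini-Hochberg over 14877 genes with a threshold of 0.05. DESeq2 1.42.0 was an alternative. Each standard error was the absolute log2 fold change, refitted without a prior count, divided by the square root of the F statistic. The 95% intervals used these errors and t quantiles, centred on the log2 fold change of the main fit. Calls and fold changes of the edgeR fit were tried on simulated data, but not the coverage of the intervals. Of simulated 2-fold changes, 46% were called for aged against young, 24% for rapamycin against aged and 46% for rapamycin against young. Each simulation changed 200 genes by 1.5-, 2-, 4- or 8-fold. It gave 119, 110 and 121 calls in these comparisons, where the data gave 7, 0 and 8. Counts were drawn independently for each library, without a shared shift such as that of young 2 and rapamycin 2. These shares are therefore not the power of the real comparisons. Lengths for reads per kilobase were exon unions of GENCODE M21 on GRCm38, where no member overlaps another gene and all of its 75-base words are unique. The 17 libraries were grouped by their labels. Among the hippocampus libraries, no replicate pair agreed within sampling noise (the lowest chi-square divided by its degrees of freedom was 12.8). Oocyte pairs were not compared in this way. Likeness used log2 CPM with a prior count of 2. Named genes were all members, up to 4 genes of smallest p in aged against young per list, Nab1, Nab2, Arnt and Arnt2, and the 8 genes of most similar pattern. Members and lists were chosen with earlier results of these data known. Alternatives were other size factors, other filters, a fit of only the 2 groups compared, robust dispersions, a ribosomal protein covariate, a replicate block and leaving out each library.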

Additional observations from a re-analysis of the deposited data

How the results depend on the processing

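For aged against young, edgeR called 7 genes and 3 members with all 10 libraries. With only the 2 groups compared it called 2 genes and 0 members, and with a ribosomal protein covariate 11 genes and 4 members. DESeq2 called 52 genes and 5 members. Leaving out each library in turn gave 0 to 15 genes and 0 to 4 members. For rapamycin against aged, edgeR called 0 genes, 2 with only the 2 groups compared and 0 to 1 with 1 library left out, and DESeq2 called 13; members were 0 throughout. For rapamycin against young, edgeR called 8 genes and 1 member, 5 and 0 with only the 2 groups compared, 16 and 2 with the ribosomal covariate, and 2 to 10 genes and 0 to 2 members with 1 library left out, while DESeq2 called 36 and 5. Without young 2 and rapamycin 2 together, a choice made after seeing the data, 590 genes and 5 members were called in the first comparison, 3139 genes in the second and 9 in the third. The cause of these shifts was not tested. Size factors by relative log expression, robust dispersions, no filter and a stricter filter of 10 CPM kept every count of genes or members within 1.5 times of its first value.

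Libraries of different groups share replicate numbers, and the sample titles do not say whether these pair them. Deviations of same-numbered libraries correlated at -0.179 to 0.635 over 9 pairs, of which 6 exceeded 0.1. Those of differently numbered libraries correlated at -0.573 to 0.518 over 24 pairs, of which 8 exceeded 0.1. The highest value, 0.635, was that of young 2 and rapamycin 2. A pairing was not tested further. With a replicate block edgeR called 9 genes, 6 of them shared, and 3 members for aged against young, where Npas4 passed (2.20, adjusted p = 0.0242) and Nr4a1 did not (1.51, 0.0503). For rapamycin against young the block gave 4 genes and 2 members, Egr2 and Npas4 (3.24, adjusted p = 0.00513), and for rapamycin against aged 0 genes.

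Signs of the log2 fold change turned in 5 cases, none of them called. For rapamycin against aged, Egr2 was at -0.071 with the ribosomal covariate and at -0.084 without aged 2 (-0.084 to 0.57 over all single omissions), and Egr1 at 0.031 without aged 3 (-0.40 to 0.031). For rapamycin against young, Nr4a3 was at -0.065 without rapamycin 3 and -0.015 without young 2 (-0.065 to 0.31). Egr2 had the fewest counts of the members in each young library, at 5 to 34, and the effect of depth was not tested. The common biological coefficient of variation was 23.5%, and 14.9% without young 2 and rapamycin 2.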

Other observations

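The members were also counted in the 7 libraries of mature (MII) oocytes, each from about 10 oocytes, which enter no comparison here. Of these, 2 came from young females of 4 weeks, 2 from aged females of 48 weeks and 3 from females of 48 weeks given rapamycin at 2 mg/kg for 40 weeks, all wild-type CD1 and injected with gonadotropins before collection. Egr1 was present in all 7, with 58 to 247 counts or 12.6 to 66.6 CPM. The libraries of 1 group spread widely, as the aged ones had 66.6 and 19.6 CPM, the young ones 12.6 and 19.8 CPM and the rapamycin ones 48.7, 15.9 and 33.9 CPM. Nr4a2 had 7 to 32 counts in each library. Npas4 had 0 counts in all 7 libraries, which allows up to 0.349 to 0.809 CPM per library (3 counts, counting error only). Egr3, Egr4 and Nr4a3 had at most 1 count, Egr2 at most 5 and Nr4a1 at most 10. The order of the members in oocytes was thus unlike that in hippocampus, where Egr3 and Nr4a3 were among the highest.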
